A study of Mus musculus with 12 samples.

Results

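The NFAT factors and calcineurin were followed through 10 genes, chosen by name and present among the 23420 genes of both count tables: the NFAT factors *Nfatc1*, *Nfatc2*, *Nfatc3*, *Nfatc4* and *Nfat5*, the calcineurin subunits *Ppp3ca*, *Ppp3cb*, *Ppp3cc* and *Ppp3r1*, and the calcineurin inhibitor *Rcan1*. All 10 passed the filter on low counts in both lines. The RNA libraries came from entire mouse embryos collected at E12.5, 1 library per embryo, with 3 in each of 4 groups. *Carm1* KO/KO embryos, homozygous for a null allele (tm1Mtb) that deletes exons 2 and 3 of the arginine methyltransferase gene *Carm1*, were compared with *Carm1* wild-type embryos, all on C57BL/6. *Pax3* Sp2H/Sp2H embryos, homozygous for the splotch null allele of the transcription factor gene *Pax3*, were compared with *Pax3* wild-type embryos, all on a mixed background. Both lines came from intercrosses of heterozygotes, and the mutant alleles are carried in every tissue. The whole embryo mixes all tissues, and in such bulk RNA fewer cells of a type and less RNA per cell cannot be told apart. No source gives the litter of an embryo, so *P* values measure the spread between these embryos.

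NFAT factors are transcription factors held in the cytoplasm by phosphorylation. A rise in calcium activates calmodulin and with it the phosphatase calcineurin, made of a catalytic A subunit and a regulatory B subunit, which removes these phosphates so that the NFATc factors enter the nucleus. *Nfat5* lacks the calcineurin docking site of the others and responds to osmotic stress, and *Rcan1* is both a target of NFAT and a feedback inhibitor of calcineurin. In the embryo the pathway is known for its part in endocardial valve formation, vessel patterning, muscle and axon growth.

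NFAT proteins bind the core GGAAA. It was searched on both strands (GGAAA and TTTCC, which do not share a start position) in the 250 bases before each start site that RefSeq gives (GRCm38.p6), with matches in capitals below. The 2 windows of *Rcan1* are shown because the internal start of this gene is the classical NFAT-responsive one. Those of *Nfatc2* and *Nfatc4* are shown because their log2 differences between the lines were largest in size (-0.48 each). *Nfatc3* also differed (0.40), with a smaller edgeR adjusted *P* than *Nfatc2*, and its windows are counted below but not printed. The printed windows lie on chr16:92466170-92466419 (minus strand, *Rcan1* upstream start), chr16:92400079-92400328 (minus strand, *Rcan1* internal start), chr2:168601658-168601907 (minus strand, *Nfatc2*) and chr14:55824545-55824794 (plus strand, *Nfatc4*), outside annotated exons, and are printed 5′ to 3′ along the gene.
Rcan1 upstream start: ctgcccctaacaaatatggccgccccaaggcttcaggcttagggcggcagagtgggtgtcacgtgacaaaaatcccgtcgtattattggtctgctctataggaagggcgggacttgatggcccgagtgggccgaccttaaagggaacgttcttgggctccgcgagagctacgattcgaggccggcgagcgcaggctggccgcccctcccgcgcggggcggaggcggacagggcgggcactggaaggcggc
Rcan1 internal start: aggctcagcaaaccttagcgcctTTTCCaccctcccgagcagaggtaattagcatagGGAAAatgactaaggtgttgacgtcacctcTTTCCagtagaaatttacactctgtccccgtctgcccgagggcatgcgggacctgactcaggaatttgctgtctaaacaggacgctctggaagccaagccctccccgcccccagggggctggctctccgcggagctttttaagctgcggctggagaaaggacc
Nfatc2: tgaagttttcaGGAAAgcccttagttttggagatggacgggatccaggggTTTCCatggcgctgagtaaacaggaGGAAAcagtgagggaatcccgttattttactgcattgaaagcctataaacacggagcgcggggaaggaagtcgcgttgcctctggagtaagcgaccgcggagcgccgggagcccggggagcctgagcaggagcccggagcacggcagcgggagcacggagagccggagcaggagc
Nfatc4: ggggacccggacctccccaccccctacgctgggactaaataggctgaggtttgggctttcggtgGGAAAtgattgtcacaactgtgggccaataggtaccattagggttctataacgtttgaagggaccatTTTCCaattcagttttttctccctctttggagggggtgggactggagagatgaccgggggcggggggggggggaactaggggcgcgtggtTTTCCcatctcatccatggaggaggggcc

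Of the printed windows, those of *Rcan1* and *Nfatc4* lie inside the annotated span of their gene, and that of *Nfatc2* lies just before it. The upstream window of *Rcan1* held 0 matches. The internal *Rcan1* window held 3, starting at positions -227, -193 and -163 from the start site. The printed windows of *Nfatc2* and *Nfatc4* also had 3 each, as did that of *Ppp3cb*, against 6.39% of all 32851 windows of this length with at least 3 and 55.6% with at least 1. *Nfatc2* has a second RefSeq start, not printed, whose window (chr2:168590366-168590615, minus strand) held 1 match. *Nfat5* had 2, the windows of *Nfatc3* had 1 and 0, and *Ppp3r1* had 0. In all, 7 of the 10 windows counted, which belong to 7 of the members, held a match and 4 held at least 3. Windows on the chromosome of *Nfatc1* were left out of these counts. A match describes the letters only, and counts per gene do not tell the 2 starts of *Rcan1* apart.

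Library totals ranged from 17183344 to 23518692 counts. *Carm1* itself fell to 72.3 ± 3.55 CPM in *Carm1* KO/KO embryos from 144 ± 6.99 CPM in wild type (SD, n = 3 each), where CPM is the count scaled to library size with TMM factors. The KO allele leaves the other exons in place, so reads on them can remain. *Pax3* fell to 20.8 ± 2.40 CPM in *Pax3* Sp2H/Sp2H embryos from 28.1 ± 2.99 CPM. In *Carm1* KO/KO embryos *Pax3* was higher, at 29.0 ± 1.52 CPM against 22.3 ± 1.86 CPM in wild type (edgeR log2 fold change 0.37, adjusted *P* = 0.00102). Y-linked transcripts were abundant (4447 to 6118 counts) in *Carm1* wild-type replicate 3, *Pax3* wild-type replicates 2 and 3 and *Pax3* Sp2H/Sp2H replicate 3, and at most 23 counts elsewhere, so the sexes were not balanced over the groups. With a term for these libraries in the fit, every member called below in one line was called again. In the *Carm1* line this term marks wild-type replicate 3 alone, so it amounts to leaving that library out and cannot test sex. GC-rich genes were higher in *Pax3* mutants as a whole: the median log2 fold change rose from -0.11 in the lowest of 4 equal GC classes of genes to 0.15 in the highest, against -0.0065 to 0.0092 in the *Carm1* line.

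Levels compared between genes are per kb of exon. *Nfatc4* was the most abundant NFAT factor in every group, at 39.2 ± 1.89 CPM per kb in *Carm1* wild-type and 38.6 ± 3.18 CPM per kb in *Pax3* wild-type embryos. The regulatory subunit *Ppp3r1* stood beside it, at 36.6 ± 1.23 and 40.2 ± 2.45 CPM per kb, and these 2 levels overlapped in both wild-type groups. The catalytic subunit *Ppp3cb* came next at 27.8 ± 1.62 and 31.5 ± 2.19 CPM per kb, overlapping neither neighbour in the order. *Nfat5*, *Ppp3ca*, *Nfatc3* and *Rcan1* formed a middle tier between 13.8 and 19.4 CPM per kb, and in *Carm1* wild-type embryos each overlapped its neighbour within the tier. In *Pax3* wild-type embryos *Nfatc3* led this tier without overlap and *Nfat5* closed it without overlap. *Nfatc1* and *Ppp3cc* were between 3.17 and 4.19 CPM per kb, overlapping in *Pax3* but not in *Carm1* wild-type embryos. *Nfatc2*, best known from T cells, was lowest at 1.29 ± 0.101 and 1.14 ± 0.161 CPM per kb. Of 7 T cell markers, 6 had at most 14 counts in any library, while *Lck* passed the filter in both lines, with group means of 4.94 to 7.42 CPM.

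**Figure D1:**
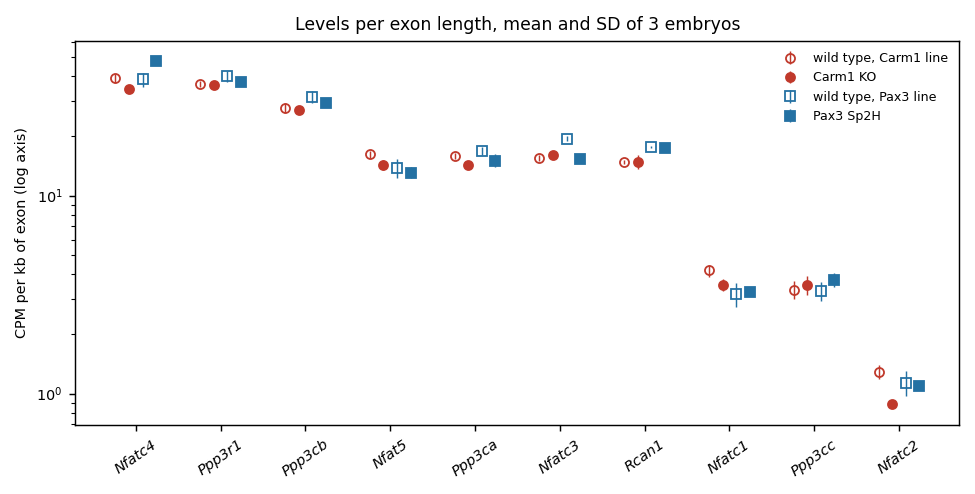
Level of each member in CPM per kb of exon (log axis), as the mean and SD of 3 embryos, with open symbols for wild type, filled symbols for mutants, circles for the *Carm1* line and squares for the *Pax3* line. *Nfatc4*, *Ppp3r1* and *Ppp3cb* lie above 26 CPM per kb in every group, and *Nfatc2* lies lowest in every group.

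In *Carm1* KO/KO embryos 4 of 5 NFAT factors and 1 of 3 catalytic subunits were lower than in wild type. Among the members the fall was largest for *Nfatc2*, while *Nfatc1* fell by 15.2%, *Nfat5* fell by 11.9%, *Nfatc4* fell by 11.7% and *Ppp3ca* fell by 9.99%. The edgeR quasi-likelihood test called 5 of 10 members, all lower, at an adjusted *P* under 0.05 (Benjamini-Hochberg over 15811 genes). Among all genes tested 13.3% were called, 7.83% lower and 5.49% higher. The count was 3 with DESeq2, 1 without mutant replicate 1, 3 without mutant replicate 2 and 2 without wild-type replicate 2. The same 5 members did not overlap between groups (4 members with RLE factors), as was the case for 30.0% of all genes. The median log2 fold change of the members was -0.096, against 0.0014 over all genes.

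**Figure D2:**
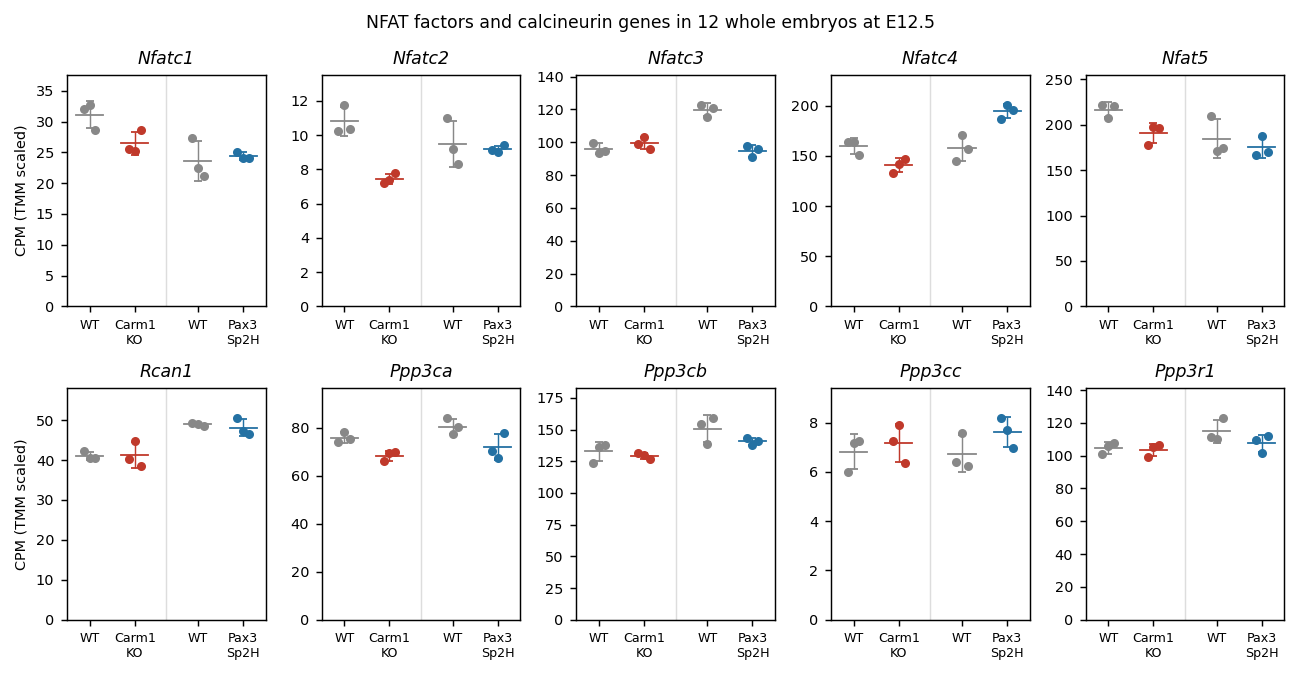
TMM-scaled CPM of each member (vertical axes from 0), with 1 point per embryo and the mean and SD of 3 embryos, wild type in grey, *Carm1* KO/KO in red and *Pax3* Sp2H/Sp2H in blue. *Nfatc2* sits between 7.19 and 7.78 CPM in *Carm1* mutants, below all wild-type embryos of that line, and *Nfatc3* and *Nfatc4* separate from wild type in opposite directions in *Pax3* mutants.

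*Nfatc2* (chr2:168476410-168601657, minus strand, mm10), an NFAT factor of lymphocytes that also acts in muscle fibre growth, measured 7.19, 7.39 and 7.78 CPM in *Carm1* KO/KO replicates 1 to 3. Wild-type embryos measured 10.3, 11.8 and 10.4 CPM. Every mutant embryo lay below every wild-type embryo. The log2 fold change was -0.54 (SE 0.12, edgeR adjusted *P* = 0.00187), a fall of 31.3%, resting on 131 to 274 counts per library. *Nfatc2* was called under all 16 alternatives run, with adjusted *P* between 0.000793 and 0.0269.

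*Nfatc1*, the NFAT factor of the endocardium and of osteoclasts, measured 25.5, 25.3 and 28.6 CPM in *Carm1* mutants and 32.0, 32.7 and 28.7 CPM in wild type. The groups were separate by a narrow margin, between mutant replicate 3 and wild-type replicate 3. Its log2 fold change was -0.24 (SE 0.075, edgeR adjusted *P* = 0.0304). This call was lost in 7 of 16 alternatives, DESeq2 among them (adjusted *P* = 0.106), and without mutant replicate 1 (0.141), mutant replicate 2 (0.148), wild-type replicate 1 (0.0569) or wild-type replicate 2 (0.175).

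*Nfatc4* (chr14:55823144-55833943, plus strand), which acts with *Nfatc3* in vessel patterning, measured 134, 142 and 147 CPM in *Carm1* mutants and 164, 164 and 151 CPM in wild type. All mutant embryos were below all wild-type embryos. The log2 fold change was -0.18 (SE 0.048, edgeR adjusted *P* = 0.00937), and the call was lost without mutant replicate 1 (adjusted *P* = 0.113) or wild-type replicate 2 (0.0891). *Nfatc3* (chr8:106058840-106130537, plus strand) did not pass the test, at 99.2, 103 and 96.0 CPM in mutants and 99.8, 93.3 and 94.97 CPM in wild type. Its log2 fold change was 0.05 (95% interval -0.046 to 0.15, adjusted *P* = 0.540), and 0.025 to 0.080 with 1 library left out.

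*Nfat5*, the osmotic stress factor, measured 178, 198 and 197 CPM in *Carm1* mutants and 222, 207 and 220.2 CPM in wild type. The groups did not overlap. The log2 fold change was -0.18 (SE 0.046, edgeR adjusted *P* = 0.00632), not called without mutant replicate 1 (adjusted *P* = 0.105) or in one fit of all 12 libraries (0.0823). With length and GC offsets it was -0.13 (edgeR adjusted *P* = 0.00487). Of 5 listed osmotic targets of NFAT5, 3 passed the filter and 2 of these were lower in *Carm1* mutants: the myo-inositol transporter gene *Slc5a3* (log2 fold change -0.34, adjusted *P* = 0.000393) and the taurine transporter gene *Slc6a6* (-0.16, adjusted *P* = 0.0325), whose groups overlapped. DESeq2 called 1 of the 3, and 7.83% of all genes were called lower by edgeR. In *Pax3* mutants 0 of 3 were called by edgeR or DESeq2 (1 at an unadjusted *P* under 0.05), and *Nfat5* itself had a log2 fold change of -0.08 (95% interval -0.22 to 0.064, adjusted *P* = 0.439).

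*Ppp3ca*, a widely expressed calcineurin catalytic subunit, measured 66.0, 69.3 and 69.9 CPM in *Carm1* mutants and 74.0, 78.5 and 75.3 CPM in wild type. The groups did not overlap. The log2 fold change was -0.15 (SE 0.051, edgeR adjusted *P* = 0.0427), and 8 of 16 alternatives lost this call, DESeq2 among them (adjusted *P* = 0.120). Among single libraries left out, the call was lost without any of the 3 mutant replicates (adjusted *P* = 0.204, 0.0954 and 0.0775) and without wild-type replicate 2 (0.214). In *Pax3* mutants *Ppp3ca* measured 70.4, 67.7 and 78.0 CPM, against 84.1, 77.5 and 80.2 CPM in wild type, and mutant replicate 3 lay within the wild-type range. That log2 fold change was -0.16 (adjusted *P* = 0.0531), and -0.08 with length and GC offsets (adjusted *P* = 0.359).

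The other calcineurin genes did not pass the test in either line. *Ppp3cb*, the most abundant catalytic subunit, had log2 fold changes of -0.04 in *Carm1* and -0.10 in *Pax3* mutants (95% intervals -0.14 to 0.057 and -0.21 to 0.017). With 1 library left out these ran from -0.085 (without wild-type replicate 1) to -0.013 (without wild-type replicate 3) and from -0.15 (without wild-type replicate 2) to -0.054 (without wild-type replicate 3). *Ppp3cc*, a subunit best known from testis, had 0.07 and 0.18 (intervals -0.21 to 0.35 and -0.086 to 0.45) on 101 to 183 counts per library, and shares 91 exon bases with an antisense gene, whose reads cannot be told apart as the strand setting of the counting is not given. The *Pax3* value of *Ppp3cc* ran from 0.13 (without mutant replicate 1) to 0.28 (without wild-type replicate 2). *Ppp3r1*, the regulatory subunit, had -0.02 and -0.10 (intervals -0.11 to 0.079 and -0.22 to 0.023). The latter was -0.041 without wild-type replicate 3 and -0.017 with length and GC offsets. Of the catalytic pool per kb, *Ppp3cb* made up 58.5% to 62.7%, *Ppp3ca* 30.2% to 34.9% and *Ppp3cc* 5.78% to 8.55% across the 12 libraries. The ratio of *Ppp3r1* to this pool stayed between 0.736 and 0.840.

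*Rcan1* (chr16:92391953-92470867, minus strand), the feedback inhibitor and NFAT target whose windows are printed above, measured 40.3, 44.9 and 38.5 CPM in *Carm1* mutants and 42.2, 40.4 and 40.6 CPM in wild type. In the *Pax3* line it measured 50.5, 47.3 and 46.5 CPM in mutants and 49.3, 49.1 and 48.5 CPM in wild type. The groups overlapped in both lines. The log2 fold changes were 0.0070 (95% interval -0.12 to 0.14) and -0.03 (-0.16 to 0.11), with edgeR adjusted *P* of 0.963 and 0.820. In the *Pax3* line the value was -0.12 with length and GC offsets (edgeR adjusted *P* = 0.199). It was -0.062 without mutant replicate 1 and -0.0046 without mutant replicate 3.

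In *Pax3* Sp2H/Sp2H embryos *Nfatc3* was lower and *Nfatc4* higher, and no other member passed the test. These were 2 of 10 members, against 24.5% of 15724 genes tested, of which 10.5% were called lower and 14.0% higher. The same 2 members did not overlap between groups, as was the case for 39.6% of all genes. The members' median log2 fold change was -0.063, against -0.0026 over all genes.

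*Nfatc3* measured 97.7, 91.0 and 95.7 CPM in *Pax3* mutants and 123, 115 and 121 CPM in wild type. All mutant embryos lay below all wild-type embryos. The log2 fold change was -0.34 (SE 0.055, edgeR adjusted *P* = 5.4e-05), a fall of 20.9%. *Nfatc3* shares 219 exon bases (3.55% of its exons) with *Esrp2* on the opposite strand, and reads on those bases cannot be told apart without the strand setting.

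*Nfatc4* measured 187, 201 and 196 CPM in *Pax3* mutants and 145, 171 and 157 CPM in wild type. All mutant embryos lay above all wild-type embryos. The log2 fold change was 0.31 (SE 0.058, edgeR adjusted *P* = 0.000294), a rise of 23.6%. *Nfatc3* and *Nfatc4* were called under all 16 alternatives, with adjusted *P* up to 0.00102 and 0.00458. *Nfatc1* and *Nfatc2* did not pass the test, with log2 fold changes of 0.05 (95% interval -0.14 to 0.23) and -0.05 (-0.29 to 0.20).

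The transcript of *Nfatc4* has a GC content of 58.8%, above 92.1% of genes, and that of *Nfatc3* has 45.9%. In 20 bins of genes by GC content, the bin of each gene had a median log2 fold change of 0.17 for *Nfatc4* and -0.07 for *Nfatc3* in the *Pax3* line, against 0.0074 and -0.0017 in the *Carm1* line. With offsets fitted to transcript length and to GC content, the *Pax3* log2 fold changes were 0.19 for *Nfatc4* (adjusted *P* = 0.00456) and -0.23 for *Nfatc3* (adjusted *P* = 0.000938). Both remained called, with *Nfatc4* reduced by more than 1.5 times.

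**Figure D3:**
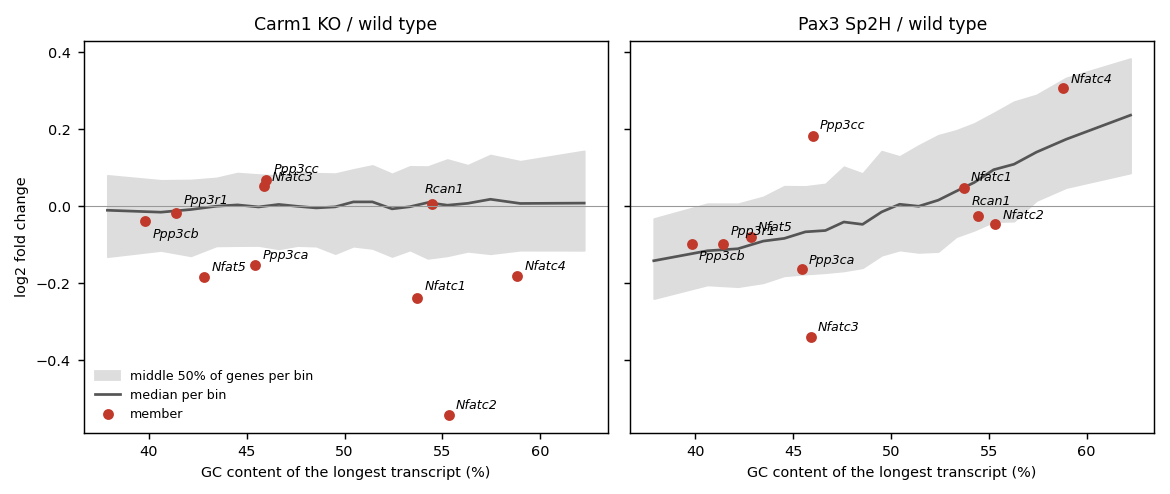
log2 fold change of each member (red) against the GC content of its longest transcript in percent, over the median (line) and the middle 50% (grey band) of all genes in 20 bins by GC content, for the *Carm1* line (left) and the *Pax3* line (right). The band is flat in the *Carm1* line and rises with GC content in the *Pax3* line, where *Nfatc4* at 0.31 lies above its bin median of 0.17 and *Nfatc3* at -0.34 below its bin median of -0.07.

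The differences for *Nfatc2*, *Nfatc3* and *Nfatc4* were not the same in the 2 lines. In one fit of all 12 libraries the edgeR interaction term, the *Carm1* effect minus the *Pax3* effect, was -0.48 for *Nfatc2* (adjusted *P* = 0.0356), 0.40 for *Nfatc3* (adjusted *P* = 0.000154) and -0.48 for *Nfatc4* (adjusted *P* = 3.6e-05). These were 3 of 10 members, against 19.1% of 16292 genes tested. For *Nfatc3* and *Nfatc4* the difference held in all 21 alternatives. For *Nfatc2* it was lost in 8, with DESeq2 (adjusted *P* = 0.0672) and without any one of *Carm1* mutant replicates 1 and 2, *Carm1* wild-type replicate 2, *Pax3* wild-type replicates 2 and 3, and *Pax3* mutant replicates 1 and 3 (0.0576 to 0.110). For *Nfatc1* the difference was -0.27 and did not pass (95% interval -0.53 to -0.020, adjusted *P* = 0.123), though it did without *Pax3* wild-type replicate 1 (0.0189). Background strain and line cannot be told apart in this comparison.

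**Figure D4:**
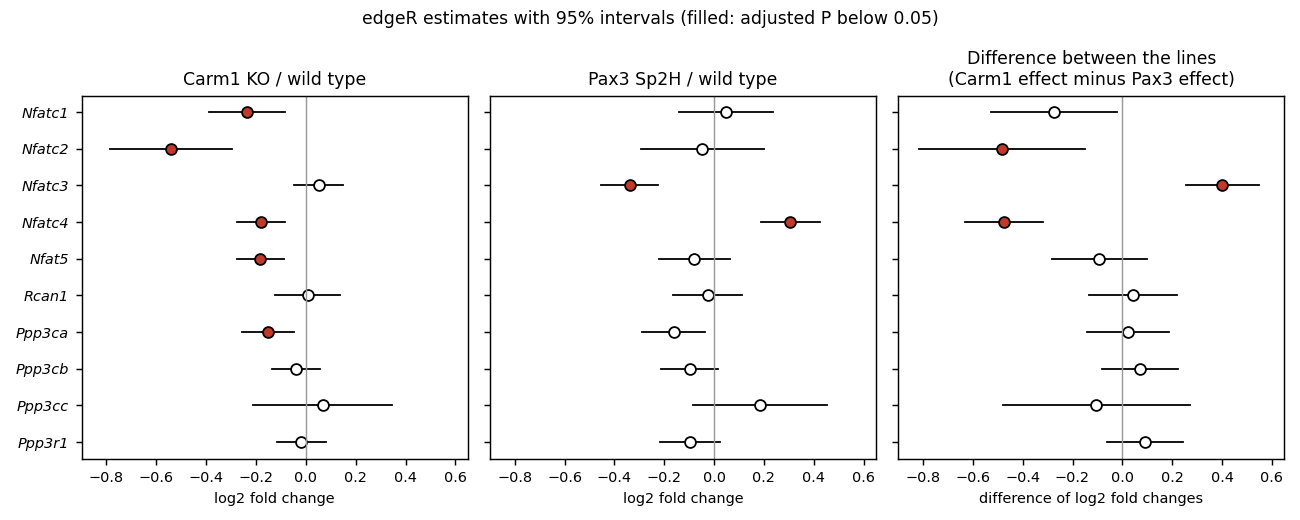
edgeR log2 fold change of each member with its 95% interval in *Carm1* KO/KO (left) and *Pax3* Sp2H/Sp2H embryos (middle) against their wild type, and the difference of these effects (right), with filled points where the adjusted *P* is under 0.05. There are 5 filled points on the left, all below 0, 2 in the middle on either side of 0, and 3 on the right.

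Within the pool of the 4 calcineurin-regulated factors per kb, *Nfatc4* made up 64.3% to 65.8% in *Carm1* wild-type and 61.6% to 64.0% in *Carm1* KO/KO embryos. *Nfatc3* made up 24.7% to 26.8% and 27.6% to 30.3%. Neither range overlapped between genotypes. In the *Pax3* line the shift ran the other way: *Nfatc4* made up 58.8% to 64.7% in wild type and 69.3% to 72.1% in mutants, and *Nfatc3* 28.9% to 33.0% and 21.6% to 23.96%. *Nfatc1* and *Nfatc2* together with these shares sum to the pool, so the shares are not independent of each other. They were computed without length and GC offsets. In the *Pax3* line the GC trend runs the same way as the shift, with bin medians of 0.17 for *Nfatc4* and -0.07 for *Nfatc3*.

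Across the 12 libraries, with the mean of each line taken out, *Nfatc1* and *Nfatc2* varied together (Pearson r of log2 CPM 0.853) and *Nfatc3* and *Nfatc4* in opposite directions (-0.848), a description over libraries that share genotype, sex and GC trend. The genes most like *Nfatc1* were *Il22ra1* (0.921), *Bmper* (0.915) and *Slc1a2* (0.913) of 15461 compared, and those most like *Nfatc2* were *Gprasp1* (0.946), *Cpb2* (0.939) and *Bmper* (0.933). *Bmper* encodes a secreted modulator of BMP signalling. For *Nfatc3* they were *Ttbk2* (0.965), *Smap1* (0.961) and *Kat6a* (0.948), for *Nfatc4* *Ctdsp2* (0.9748), *Nlgn2* (0.966) and *Sema6c* (0.957), and for *Nfat5* *Pde3a* (0.931), *2610005L07Rik* (0.924) and *4930402H24Rik* (0.915).

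The other genes of the pathway in *Carm1* mutants stand beside 7.83% of all genes called lower and 5.49% called higher. Of other calcineurin subunits, inhibitors and anchors 0 of 9 tested were called by edgeR and 0 by DESeq2 (log2 fold changes -0.35 to 0.10, 2 at an unadjusted *P* under 0.05). Of 18 genes of calcium entry, release and calmodulin 2 were higher, the phospholipase gene *Plcg2* (0.38, adjusted *P* = 0.0416) and the IP3 receptor gene *Itpr3* (0.32, adjusted *P* = 0.00161), and DESeq2 called 1. Of 9 kinases and scaffolds that oppose NFAT 1 was higher, the scaffold gene *Homer3* (0.36, adjusted *P* = 2.4e-05). Of 6 genes tested among targets of NFATc1 in osteoclasts 3 were lower, the gelatinase gene *Mmp9* (-0.91, adjusted *P* = 0.000283), the cathepsin gene *Ctsk* (-0.50, adjusted *P* = 0.000573) and the integrin gene *Itgb3* (-0.35, adjusted *P* = 0.0471). Of the remaining 3, *Calcr* had 0.59 (adjusted *P* = 0.193), with every mutant above every wild-type embryo at 1.83 ± 0.263 against 1.19 ± 0.314 CPM. *Oscar* had -0.57 (edgeR adjusted *P* = 0.439) with overlapping groups, and *Acp5* had 0.0055 (adjusted *P* = 0.980). These 3 were named after their values were seen.

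In *Pax3* mutants the called pathway genes outside the members were all higher. Among kinases and scaffolds that oppose NFAT, 4 of 9 rose, *Gsk3a* (0.40, edgeR adjusted *P* = 3.1e-05), *Homer3* (0.34, adjusted *P* = 0.00031) and the kinase gene *Dyrk2* (0.25, adjusted *P* = 0.013) most. Values below 0 were found for 3 of the 9, none called. Of these, *Csnk1a1* (-0.12, edgeR adjusted *P* = 0.124) and *Gsk3b* (-0.11, adjusted *P* = 0.135) had every mutant below every wild-type embryo. The calcium channel gene *Orai3* (0.32, adjusted *P* = 0.0362) and the calmodulin gene *Calm3* (0.18, adjusted *P* = 0.0418) rose among 18 genes of calcium entry, release and calmodulin, of which DESeq2 called 1. *Fkbp1a*, which encodes the target of the calcineurin inhibitor FK506, rose among 9 other calcineurin genes (0.17, adjusted *P* = 0.0309), and 0 of 6 osteoclast targets were called by edgeR or DESeq2 (0 at an unadjusted *P* under 0.05). These counts stand beside 14.0% of all genes called higher, a share that ran from 4.46% in the lowest to 28.9% in the highest of the 4 GC classes. Values of these lists with length and GC offsets were not computed.

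**Figure D5:**
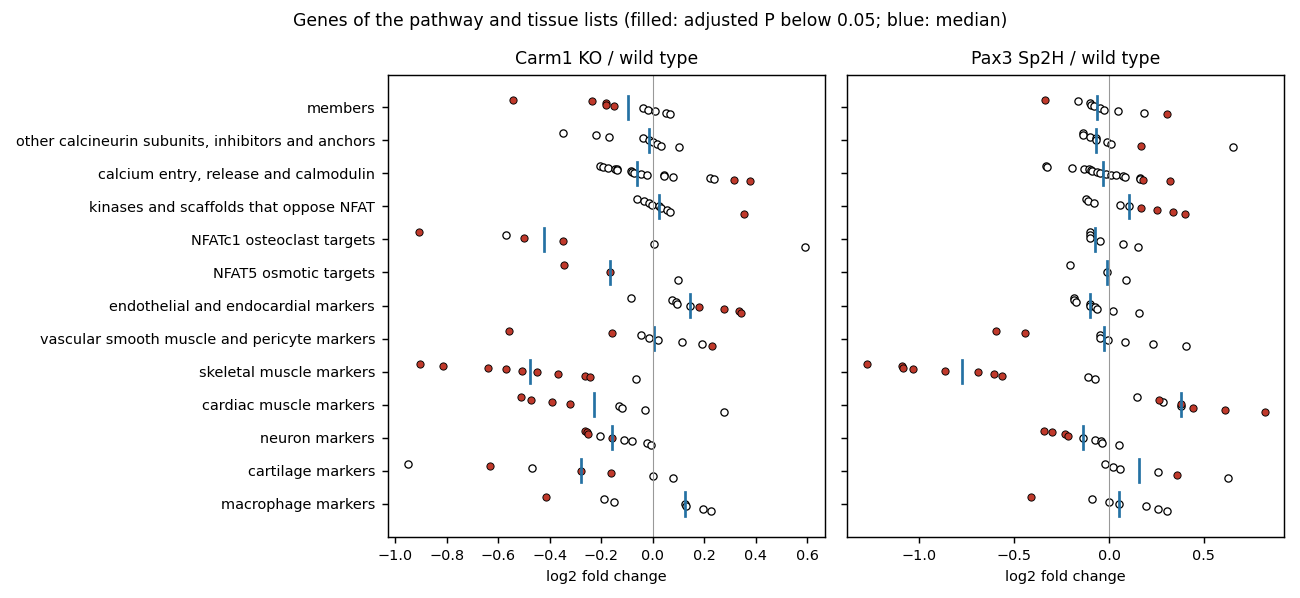
log2 fold change of each tested gene of the members, the pathway lists and the tissue marker lists in *Carm1* KO/KO (left) and *Pax3* Sp2H/Sp2H embryos (right), with filled points at an adjusted *P* under 0.05 and the median of each list as a blue line. Skeletal muscle markers lie lowest in both lines, with medians of -0.48 and -0.78, while cardiac markers have a median of -0.23 in the *Carm1* and 0.38 in the *Pax3* line.

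Markers of embryonic tissues also moved, and their part in the members' differences was not tested. The counts below stand beside 7.83% of all genes called lower and 5.49% higher in the *Carm1* line, and 10.5% and 14.0% in the *Pax3* line. Skeletal muscle markers were lower in both lines, 9 of 10 in *Carm1* mutants (*Acta1* -0.90, *Myl1* -0.82, *Mylpf* -0.64) and 8 of 10 in *Pax3* mutants (*Myod1* -1.28, *Myh8* -1.09, *Myog* -1.09). Their summed level was 525 to 543 CPM in *Carm1* mutants against 712 to 780.1 CPM in wild type, and 232 to 263 against 403 to 451 CPM in the *Pax3* line. Cardiac muscle markers fell in 4 of 8 cases in *Carm1* mutants (*Tnnt2* -0.51, *Myh6* -0.47, *Tnni3* -0.39) and rose in 5 of 8 in *Pax3* mutants (*Myl7* 0.82, *Nppa* 0.61, *Myl2* 0.44), against 3 and 4 called by DESeq2. Of 9 endothelial and endocardial markers, the tissue of *Nfatc1*, 4 were higher in *Carm1* mutants (*Plvap* 0.34, *Emcn* 0.33, *Tek* 0.28) by edgeR and 2 were called by DESeq2, and 0 were called in *Pax3* mutants by edgeR or DESeq2 (2 at an unadjusted *P* under 0.05). Neuron markers were lower in 4 of 9 cases in each line (*Stmn2* -0.26, *Syt1* -0.25 and *Gap43* -0.25 in *Carm1* mutants, *Nefl* -0.34, *Elavl4* -0.30 and *Stmn2* -0.24 in *Pax3* mutants), and DESeq2 called 3 and 4.

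Vascular smooth muscle and pericyte markers were mixed in *Carm1* mutants, with *Myh11* (-0.56) and *Acta2* (-0.16) lower and *Tagln* (0.23) higher of 8, and 2 of 8 were lower in *Pax3* mutants (*Acta2* -0.59, *Rgs5* -0.45). Cartilage markers were lower in 3 of 7 cases in *Carm1* mutants (*Acan* -0.63, *Col9a1* -0.28, *Col11a1* -0.16), and *Col9a1* was higher (0.36) in *Pax3* mutants. Of 7 macrophage markers 1 was lower in each line, *Adgre1* (-0.42) in *Carm1* and *Mrc1* (-0.41) in *Pax3* mutants, and DESeq2 called 0 and 1. The list was mixed in sign, with 4 of 7 fold changes above 0 in *Carm1* mutants (median 0.13) and 5 of 7 in *Pax3* mutants (median 0.052), of which none passed the edgeR test after adjustment. Each gene named from these lists passed the edgeR test at an adjusted *P* under 0.05. Over all pathway and marker lists, the members not included, 36 of 104 genes were called in the *Carm1* line and 28 of 103 in the *Pax3* line, against 13.3% and 24.5% of all genes tested, and without *Carm1* mutant replicate 1 the former was 23.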

How the data were processed

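Per the labels and the study's methods, polyadenylated RNA of homogenized whole embryos was read as paired ends, aligned to mm10 with STAR and counted on exons with featureCounts. Versions and the strand setting are not given in the sources used here. The authors deposited raw counts per gene and library, not normalized and not pooled.

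Counts were scaled by TMM, filtered with filterByExpr and tested in each line by the robust quasi-likelihood test of edgeR 4.0.16 under R 4.3.3, without covariates, with Benjamini-Hochberg adjustment over all genes tested and a threshold of 0.05. The difference between lines was an interaction in one fit of 12 libraries. The script was also run on simulated data with 200 changed genes, whose recovery and false-call rates are not given here. Coordinates, exon length and GC content came from GENCODE M21 (GRCm38), which matched 21777 of 23420 symbols as written and 1260 through older symbols. Levels per kb divide CPM by exon length. For *Ppp3cc* and *Nfat5* the transcript used for GC content had 2494 and 13443 bases, more than their exon lengths of 2030 and 13382 bases. For these genes the transcript and the exon length thus cannot rest on the same set of exons. The spread of 3 embryos per group limits precision, as replicates differed by more than counting error (chi-square per degree of freedom 3.07 to 23.2).

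All 10 members were named, with the 3 called genes of largest fold change per list and line and the 3 genes most correlated with each NFAT factor. Members and lists were chosen with earlier results of these data known. Alternatives were DESeq2 1.42.0, RLE and upper-quartile factors, no filter, at least 10 counts in every library, one fit of 12 libraries, a replicate block, a term for libraries with at least 100 Y-linked counts, splines (5 degrees of freedom) as offsets for length and GC content, and leaving out each library.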

Additional observations from a re-analysis of the deposited data

Results flagged for a closer look

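The effects of 3 of 10 members differed between the lines in the edgeR interaction test of all 12 libraries, against 19.1% of 16292 genes tested. The *Carm1* effect minus the *Pax3* effect was -0.48 (log2) for *Nfatc2* (adjusted *P* = 0.0356), lower in 3 of 3 *Carm1* mutants than in any wild-type embryo of that line, while the groups overlapped in the *Pax3* line. This difference was lost in 8 of 21 alternatives, with DESeq2 (adjusted *P* = 0.0672) and without any one of 7 libraries (0.0576 to 0.110), whereas those of *Nfatc3* and *Nfatc4* held in all 21. The difference was 0.40 for *Nfatc3* (adjusted *P* = 0.000154), lower in 3 of 3 *Pax3* mutants and overlapping in the *Carm1* line. It was -0.48 for *Nfatc4* (adjusted *P* = 3.6e-05), lower in 3 of 3 *Carm1* mutants and higher in 3 of 3 *Pax3* mutants. The lines differ in strain as well as in the targeted gene, and these cannot be told apart.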

How the results depend on the processing

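In the *Carm1* line 5 members were called, and 3 with DESeq2, 2 in one fit of 12 libraries, 3 with the replicate block and 1 to 5 with a library left out (1 without mutant replicate 1, 2 without wild-type replicate 2, 3 without mutant replicate 2). List genes called there were 23 to 37 with a library left out. In the *Pax3* line 2 or 3 members were called, the third being *Ppp3ca* with RLE factors (adjusted *P* = 0.0472), one fit of 12 libraries (0.0209), the replicate block (0.0386) or without mutant replicate 3 (0.0315). Whether replicate numbers pair the embryos cannot be decided from their correlations. Same-number values were -0.038, -0.0052 and -0.027 in the *Carm1* and 0.127, -0.066 and 0.202 in the *Pax3* line. Pairs of unlike number had -0.019 to 0.044 and -0.28 to 0.18. Some *Pax3* pairs also share the presence or absence of Y-linked transcripts. With length and GC offsets *Nfat5* also differed between lines (-0.20, adjusted *P* = 0.0167, and 0.0245 with the replicate block). All genes called numbered 2106 in the *Carm1* line and 1224 to 3209 over alternatives, and 3851 and 2454 to 4596 in the *Pax3* line.

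Signs turned only for members that were not called in that comparison, and the cause was not tested. In the *Carm1* line *Rcan1* was -0.00099 with the Y-linked term and -0.058, -0.0027 and -0.00092 without mutant replicate 2 and wild-type replicates 2 and 3. *Ppp3r1* was 0.0019 with the Y-linked term, 0.013 with offsets, 0.014 with offsets and the replicate block, and 0.013 and 0.0020 without mutant replicate 1 and wild-type replicate 3. *Ppp3cc* was -0.0068 and -0.0088 without mutant replicate 2 and wild-type replicate 1. In the *Pax3* line *Nfatc1* was -0.0050 with the Y-linked term and -0.026 without wild-type replicate 3, and *Nfatc2* 0.072 without wild-type replicate 1. *Nfat5* was 0.069 with offsets, 0.068 with the block and offsets and 0.019 without wild-type replicate 1, and *Ppp3cb* 0.018 with offsets and 0.018 with the block and offsets. In the interaction *Ppp3ca* was -0.046 with offsets, -0.045 with the block and offsets, and -0.013 and -0.022 without *Pax3* wild-type replicate 1 and mutant replicate 2. There *Ppp3cb* was -0.015 with offsets, also with the block, and *Rcan1* -0.022 without *Carm1* mutant replicate 2. With a library left out, values reached 0.053 (*Rcan1*), 0.15 (*Ppp3cc*) and -0.043 (*Ppp3r1*) in the *Carm1* line, 0.17 (*Nfatc1*), -0.14 (*Nfatc2*) and -0.13 (*Nfat5*) in the *Pax3* line, and 0.090 (*Rcan1*) and 0.084 (*Ppp3ca*) in the interaction at the other end of their ranges.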
